A study of Homo sapiens with 16 samples.

Results

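Aminoacyl-tRNA synthetases join each amino acid to its transfer RNA, the step that supplies the ribosome with substrate. The results below describe the mRNAs of 36 synthetase genes, 20 for enzymes of the cytosol and 16 for enzymes of mitochondria, in MOLM-13 cells, an established human acute myeloid leukaemia line. The genes were taken by symbol from the 60669 genes of the deposited table, in a choice made with earlier results of these data known. All 36 were among the 16555 genes that passed the filter on low counts. Symbols follow the table, so that AARS, for instance, is the gene now called AARS1.

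The cells were treated for 4 days in one of 4 ways, with 4 RNA-seq libraries of each. The combination group received an EZH2 inhibitor at 1 µM together with a PRMT5 inhibitor at 1 µM. The PRMT5i group received the PRMT5 inhibitor alone, the EZH2i group the EZH2 inhibitor alone, and the DMSO group 0.005% of the solvent. The labels do not name the compounds and do not say whether the 4 libraries of a group came from separate cultures, so p-values measure the spread between these libraries, which may be technical.

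PRMT5 is a methyltransferase that places symmetric dimethyl marks on arginines of histones, splicing proteins and ribosomal proteins. EZH2 is the catalytic subunit of Polycomb repressive complex 2, which methylates lysine 27 of histone H3. Cytosolic synthetases serve the bulk of protein synthesis, and several of them sit with scaffold proteins in the multisynthetase complex. Their mitochondrial counterparts, encoded by other nuclear genes, charge the tRNAs of the mitochondrial genome, while GARS and KARS each supply both compartments. When uncharged tRNA or other stresses activate a kinase of the integrated stress response, such as GCN2, phosphorylation of eIF2α favours translation of the transcription factor ATF4. ATF4 binds C/EBP-ATF response elements in genes of amino acid synthesis, amino acid transport and tRNA charging. WARS, the tryptophan enzyme, is in addition a known interferon-induced gene.

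The 7 stretches of promoter sequence below are shown because an exact match to the core of that element was the feature searched for in the starting regions, and because the genes that hold it are followed through the results. RefSeq promoter windows on GRCh38.p14, which run from 250 bases before to 50 bases after a gene's start, were matched for 30 of the 36 members. The members with no match were DARS, LARS, VARS, YARS, AARS2 and VARS2. The motif TGATGNAA was searched on both strands, where the opposite strand reads TTNCATCA. It was found in 6 of 16 cytosolic windows (37.5%), in 1 of 14 mitochondrial windows (7.14%) and in 1270 of all 35116 windows of that length (3.62%). Each line gives 60 bases 5′ to 3′ on the gene's own strand with the match in capitals. The matches lie in the gene's own direction in NARS and YARS2 and in the opposite direction in the other 5. A match is a description of letters and no evidence of binding.
AARS (chr16:70289660-70289719, minus strand): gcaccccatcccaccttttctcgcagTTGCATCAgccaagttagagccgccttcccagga
CARS (chr11:3057394-3057453, minus strand): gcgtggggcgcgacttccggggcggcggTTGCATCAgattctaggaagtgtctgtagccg
IARS (chr9:92293677-92293736, minus strand): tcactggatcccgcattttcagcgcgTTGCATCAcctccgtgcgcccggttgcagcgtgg
MARS (chr12:57488038-57488097, plus strand): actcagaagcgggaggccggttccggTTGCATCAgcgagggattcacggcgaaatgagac
NARS (chr18:57621807-57621866, minus strand): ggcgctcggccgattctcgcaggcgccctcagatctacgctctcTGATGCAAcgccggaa
TARS (chr5:33440935-33440994, plus strand): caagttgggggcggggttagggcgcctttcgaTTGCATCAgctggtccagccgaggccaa
YARS2 (chr12:32756061-32756120, minus strand): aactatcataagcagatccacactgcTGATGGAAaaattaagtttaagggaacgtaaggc
In the cytosolic genes other than AARS the match begins close to the start site. It begins 13 bases before the start in IARS, 4 before in MARS and 2 before in CARS, and at position 2 after it in TARS. The match of NARS begins at position 14 after the start, and that of AARS lies 187 bases before it. In YARS2, the mitochondrial tyrosine enzyme, it lies 197 bases before the start.

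Library depth was 31142456 to 52885899 expected counts, and levels are given in CPM, counts scaled to the library size and its TMM factor. All 9 myeloid leukaemia markers were detected, with a summed level of 2140 to 2310 CPM in the combination, 2510 to 2810 CPM with PRMT5i, 1560 to 1750 CPM with EZH2i and 1660 to 2280 CPM in DMSO. The 5 T and NK cell markers summed to 58.2 to 75.2 CPM in the combination, 44.4 to 58.4 CPM with PRMT5i, 68.5 to 99.4 CPM with EZH2i and 44.8 to 68.6 CPM in DMSO, mostly from NCAM1 and NKG7. Of the T cell markers, CD2 had no count in any library, CD3E had at most 4, and CD3D averaged 3.92 CPM in the combination, 1.94 CPM with PRMT5i, 7.14 CPM with EZH2i and 4.19 CPM in DMSO. CD3D and NCAM1 were higher with EZH2i, by 0.77 and 1.05 on the log2 scale (adjusted p of 0.00782 and 0.0158), and CD3D fell by 1.11 with PRMT5i (adjusted p = 4.97e-05). The 4 B cell markers summed to at most 1.33 CPM. The 6 epithelial and fibroblast markers summed to 29 to 31.4 CPM in the combination, 24.3 to 27.8 CPM with PRMT5i, 20.4 to 32.8 CPM with EZH2i and 13.4 to 18.4 CPM in DMSO. Of the 5 of them that were tested, 4 were higher than in DMSO in the combination, 3 with PRMT5i and 5 with EZH2i. The part of these marker lists in the synthetase values was not tested. EPCAM, the defining epithelial marker, had at most 16 counts in a library. KRT18 averaged 21.3 CPM in the combination, 17.2 CPM with PRMT5i, 20.4 CPM with EZH2i and 12.6 CPM in DMSO. KRT18, KRT8 and PDGFRB were called higher than in DMSO in each inhibitor group. DMSO replicate 1 stood apart, with 1.70% of its counts from the mitochondrial genome against 0.213% to 0.792% in the other 15 libraries and with a TMM factor of 0.861. Libraries also differed in how gene GC content correlated with their deviation from the mean over libraries. That correlation was −0.28 in DMSO replicate 1, 0.41 in DMSO replicate 2 and 0.44 in EZH2i replicate 1. In bulk RNA a lower level cannot be divided between fewer cells of a type and less RNA per cell.

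The summed level of cytosolic synthetase mRNA was lower in every library of the 3 inhibitor groups than in any DMSO library, and lowest in the groups that received the PRMT5 inhibitor. The 20 cytosolic genes summed to 3908, 4069, 4430.4 and 4655 CPM in the combination. They summed to 4247, 4184, 4140.4 and 4167 CPM with PRMT5i, 5775, 5358, 5705 and 5467 CPM with EZH2i, and 6917, 6581, 6369 and 6631 CPM in DMSO. The combination and PRMT5i libraries overlapped with each other and lay below every EZH2i library, and every EZH2i library lay below every DMSO library. The 16 mitochondrial genes together averaged 662 ± 5.72 CPM in the combination, 666 ± 18.4 CPM with PRMT5i, 682 ± 26.8 CPM with EZH2i and 723 ± 35.5 CPM in DMSO (SD, n = 4 each). The cytosolic sum was thus 6.45 ± 0.567 times the mitochondrial sum in the combination, 6.29 ± 0.129 times with PRMT5i, 8.18 ± 0.233 times with EZH2i and 9.17 ± 0.200 times in DMSO (SD, n = 4 each). These sums are dominated by a few abundant genes and are given as a description.

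**Figure D1:**
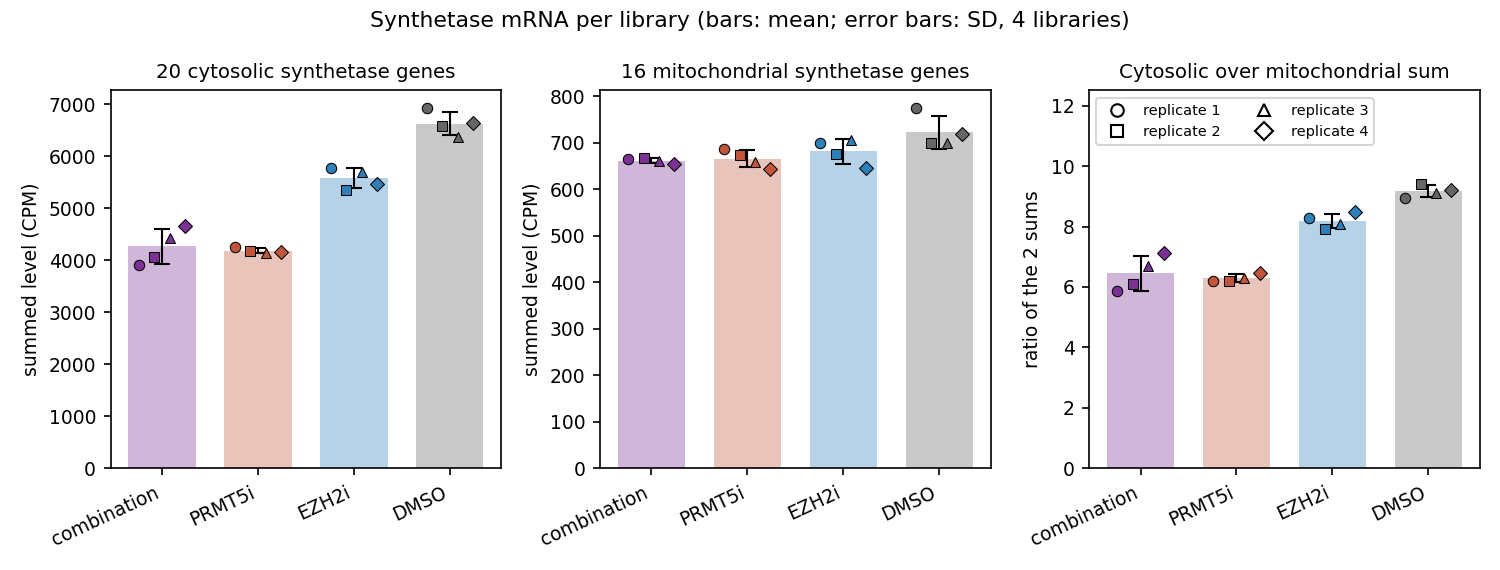
Summed level in CPM of the 20 cytosolic genes (left) and the 16 mitochondrial genes (middle), and the ratio of the 2 sums (right), for each library of the combination, PRMT5i, EZH2i and DMSO groups. Bars are means and error bars SDs of 4 libraries; the mean ratio was 6.45 in the combination, 6.29 with PRMT5i, 8.18 with EZH2i and 9.17 in DMSO.

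With the PRMT5 inhibitor alone, 12 of 20 cytosolic synthetases fell relative to DMSO and none rose, at an adjusted p under 0.05 in edgeR's quasi-likelihood test. The share of all tested genes called in that comparison was 35.3%, with 18.3% lower and 17.1% higher. The median log2 fold change was −0.74 over the cytosolic genes and −0.06 over the mitochondrial genes, against 0.00 over all 16555 genes. Of the 16 mitochondrial genes, 5 fell and 1 rose. The cytosolic genes that fell separated from DMSO with no overlap between libraries in 11 of 12 cases, AARS being the exception. Over the whole table, 17.2% of tested genes, and 84.1% of the genes called lower, lay below DMSO without overlap in that comparison.

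The methionine enzyme MARS, a member of the multisynthetase complex whose enzyme also serves initiator tRNA, had the most negative fold change of the 36. It measured 105, 105, 104 and 95.1 CPM in PRMT5i libraries, against 259, 329, 263 and 271 CPM in DMSO libraries. The highest PRMT5i library was below the lowest DMSO library by a wide margin, and the mean log2 fold change was −1.46 (SE 0.15, adjusted p = 1.08e-06). About 13.3% of the exon bases of MARS are shared with other annotated genes, so a part of its reads could be assigned elsewhere.

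LARS, the leucine enzyme that also senses leucine for the mTORC1 pathway, had 347, 336, 312 and 331 CPM with PRMT5i and 718, 539, 579.5 and 626 CPM in DMSO. IARS, the isoleucine enzyme, had 588, 557, 522 and 531 CPM with PRMT5i and 1319, 887, 895 and 983 CPM in DMSO. EPRS, a fused enzyme for glutamate and proline, had 489, 489.8, 453 and 482 CPM with PRMT5i and 787, 702, 758 and 819 CPM in DMSO. In these 3 complex members the PRMT5i libraries were all below the DMSO libraries, and DMSO replicate 1 was the highest for LARS and IARS but not for EPRS. The log2 fold changes were −0.89 for LARS (SE 0.08, adjusted p = 4.82e-07), −0.89 for IARS (SE 0.11, adjusted p = 7.03e-06) and −0.68 for EPRS (SE 0.08, adjusted p = 3.23e-06).

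The other 4 enzymes of the complex did not pass the threshold. RARS, the arginine enzyme, had 149, 141, 136 and 146 CPM with PRMT5i and 191, 114, 125 and 143 CPM in DMSO, with a log2 fold change of −0.00 and a 95% interval of −0.28 to 0.27. The values for QARS, DARS and KARS, which charge glutamine, aspartate and lysine tRNA, were 0.12, −0.11 and −0.20, with adjusted p of 0.578, 0.51 and 0.0683. KARS libraries nonetheless did not overlap, at 272 to 293 CPM with PRMT5i and 295 to 374 CPM in DMSO, and KARS passed at −0.24 without DMSO replicate 2 or 3. In all, 4 of 8 complex members fell, with a median log2 fold change of −0.44, beside 8 of 12 cytosolic enzymes outside the complex, with a median of −0.80.

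Outside the complex, the serine enzyme SARS gave the smallest p of all members. It had 95.8, 89.6, 89.5 and 88.0 CPM in PRMT5i libraries, against 191, 172, 178 and 188 CPM in DMSO libraries, a log2 fold change of −1.01 (SE 0.08, adjusted p = 1.43e-07). CARS, the cysteine enzyme, had 59.4, 60.04, 52.1 and 50.8 CPM with PRMT5i and 107, 114, 111 and 113 CPM in DMSO, a log2 fold change of −1.002 (SE 0.12, adjusted p = 8.8e-06). Both genes fell to about 0.5 of their DMSO level in PRMT5i libraries, and no library of either group reached the range of the other.

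TARS, the threonine enzyme, had 299.8, 282, 274 and 286 CPM with PRMT5i and 625, 448, 493 and 528 CPM in DMSO, a log2 fold change of −0.87 (SE 0.10, adjusted p = 3.54e-06). WARS had 191, 188, 182 and 176 CPM with PRMT5i and 316, 375, 380.0 and 377 CPM in DMSO, a log2 fold change of −0.97 (SE 0.11, adjusted p = 4.79e-06). Neither gene's groups overlapped, although the DMSO libraries of TARS were spread more widely than its PRMT5i libraries.

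GARS, NARS, FARSB and AARS also fell and are named here after their values were seen. GARS, the glycine enzyme of both compartments, had 120.1, 131, 142 and 149.8 CPM with PRMT5i and 284, 423, 316 and 322 CPM in DMSO, a log2 fold change of −1.31 (SE 0.17, adjusted p = 1.53e-05). NARS, the asparagine enzyme, fell by 0.82 on the log2 scale (adjusted p = 9.22e-05), and FARSB, which encodes the beta subunit of the phenylalanine enzyme, fell by 0.36 (adjusted p = 0.00252). The alpha subunit gene FARSA had a log2 fold change of 0.01 with a 95% interval of −0.25 to 0.28, so the subunit genes of 1 enzyme gave different calls, and the difference between them was not tested.

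AARS, the alanine enzyme, and YARS, the tyrosine enzyme, had their lowest DMSO value in replicate 1. AARS had 125, 147, 145 and 140.0 CPM with PRMT5i and 109, 376, 262 and 217 CPM in DMSO, a log2 fold change of −0.79 (SE 0.25, adjusted p = 0.0193), and its groups overlapped through that library alone. YARS had 149.8, 162, 151 and 149.7 CPM with PRMT5i and 103, 314, 268 and 228 CPM in DMSO, a log2 fold change of −0.57 (SE 0.22) that missed the threshold with an adjusted p of 0.0521. Without DMSO replicate 1, YARS passed the threshold with a log2 fold change of −0.83. The AARS call was lost when other libraries were omitted, with a log2 fold change of −0.49 (adjusted p = 0.0718) without DMSO replicate 2 and of −0.74 (adjusted p = 0.0522) without PRMT5i replicate 1, in a range of −1.04 to −0.49 over all alternatives. The remaining cytosolic genes, HARS for histidine and VARS for valine, had log2 fold changes of 0.16 and −0.10 and did not pass.

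**Figure D2:**
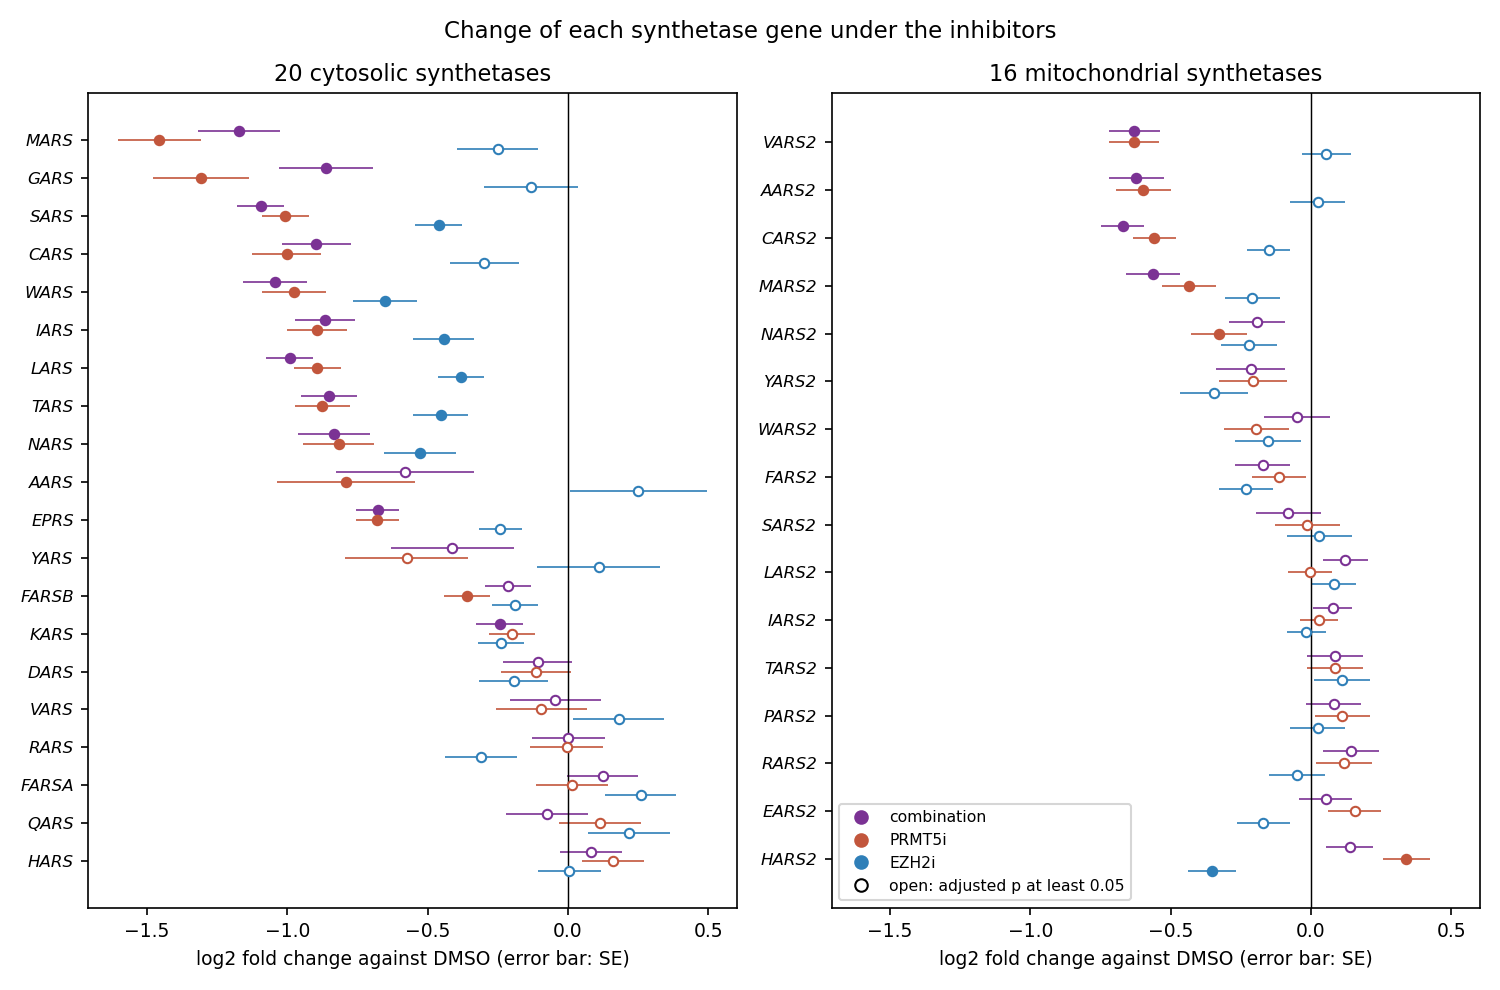
Log2 fold change against DMSO of each cytosolic gene (left) and mitochondrial gene (right) in the combination, PRMT5i and EZH2i groups, with its SE; filled points passed the adjusted p of 0.05 and open points did not. Most cytosolic points of the combination and PRMT5i lie left of 0, down to −1.46 for MARS, while 10 of the 16 mitochondrial genes have an open point for PRMT5i.

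All 6 cytosolic genes with the element core in their window fell under the PRMT5 inhibitor, with log2 fold changes from −1.46 to −0.79 and a median of −0.88. Of the 10 with a window and no match, 5 fell and the median was −0.28. GARS, SARS and WARS, with −1.31, −1.01 and −0.97, have no match in their window. YARS2, the only mitochondrial gene with a match, had 38.3, 34.7, 31.0 and 30.7 CPM with PRMT5i and 51.2, 31.6, 36.6 and 36.1 CPM in DMSO, overlapping groups with a log2 fold change of −0.21 (adjusted p = 0.206). By enzyme class, 6 of 10 class I and 6 of 10 class II cytosolic genes fell.

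**Figure D3:**
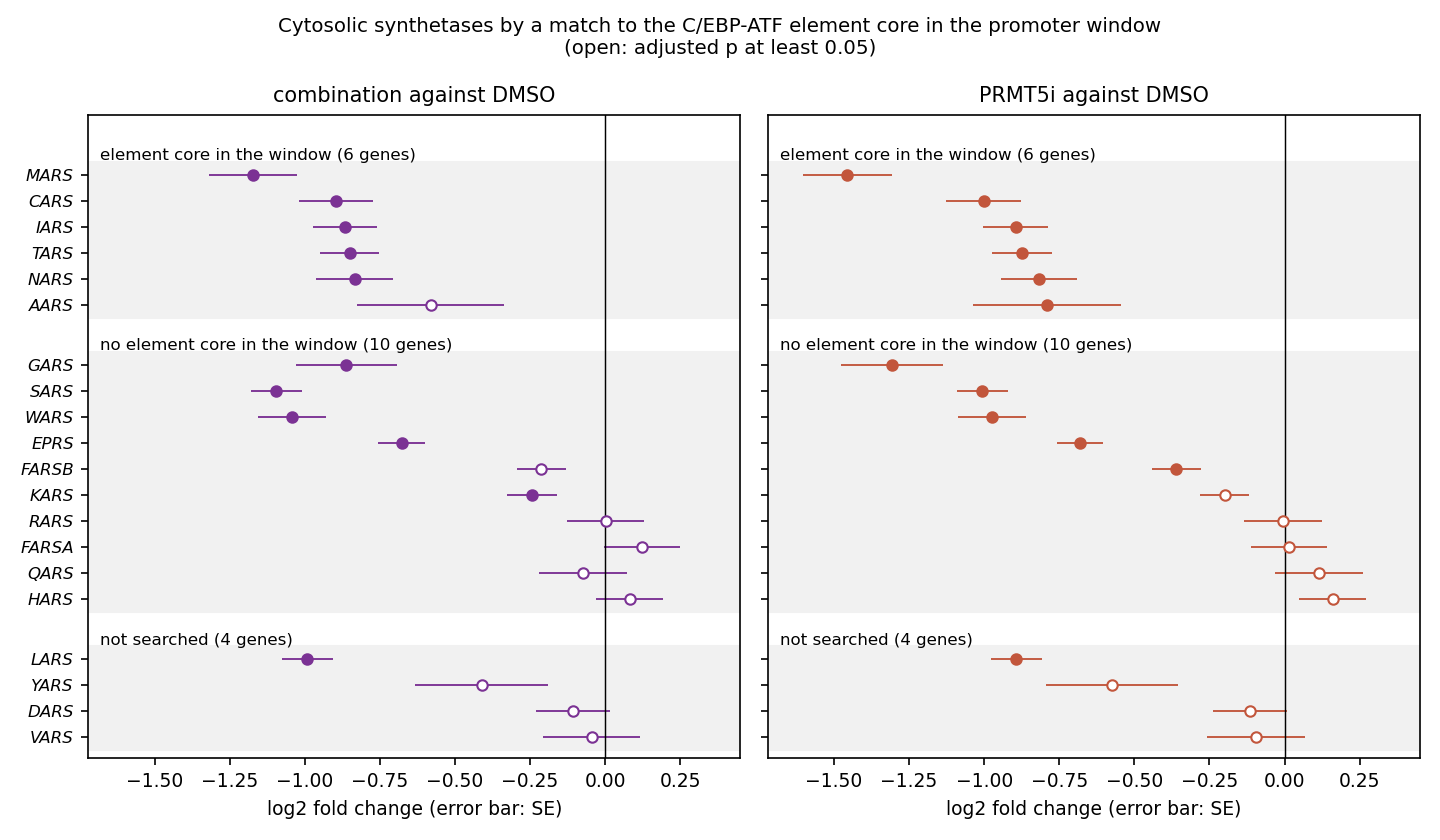
Log2 fold change against DMSO, with its SE, in the combination (left) and with PRMT5i (right), for the 6 cytosolic genes with the element core in their promoter window, the 10 without it and the 4 not searched. All 6 genes with the core lie left of 0, between −1.46 and −0.79 for PRMT5i, while the 10 without it range from −1.31 to 0.16.

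Among mitochondrial synthetases, the log2 fold changes of the 5 genes that fell under the PRMT5 inhibitor ran from −0.63 to −0.33. CARS2, the cysteine enzyme, had 56.9, 50.6, 53.5 and 50.3 CPM in PRMT5i libraries, against 83.4, 81.1, 73.9 and 72.9 CPM in DMSO libraries, a log2 fold change of −0.56 (SE 0.08, adjusted p = 2.71e-05). VARS2, the valine enzyme, had 17.6, 17.3, 18.0 and 17.1 CPM with PRMT5i and 27.2, 27.3, 25.3 and 28.6 CPM in DMSO, a log2 fold change of −0.63 (SE 0.09, adjusted p = 3.45e-05). Both genes were lower in every PRMT5i library, though 22.0% of the exon bases of VARS2 are shared with other genes, chiefly GTF2H4 on the same strand.

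AARS2, for alanine, had 37.8, 35.8, 35.4 and 28.8 CPM with PRMT5i and 50.2, 55.5, 53.0 and 49.8 CPM in DMSO, with a log2 fold change of −0.60 (SE 0.10, adjusted p = 0.000156). MARS2, for methionine, had 25.7, 26.0, 25.6 and 24.2 CPM with PRMT5i and 36.9, 31.1, 36.1 and 33.2 CPM in DMSO, with a log2 fold change of −0.44 (SE 0.10, adjusted p = 0.00207). The groups of both genes were apart. NARS2, for asparagine, was the fifth that fell, with a log2 fold change of −0.33 (adjusted p = 0.0173) and libraries that overlapped, at 32.6 to 35.7 CPM with PRMT5i and 35.3 to 52.0 CPM in DMSO. Its call was lost without PRMT5i replicate 3, at −0.30 (adjusted p = 0.0562).

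HARS2, the mitochondrial histidine enzyme, was the only synthetase called higher under the PRMT5 inhibitor. It had 45.9, 44.1, 44.4 and 44.3 CPM with PRMT5i and 41.3, 32.2, 32.3 and 35.4 CPM in DMSO, a log2 fold change of 0.34 (SE 0.08, adjusted p = 0.00446), with every PRMT5i library above every DMSO library. HARS2 and HARS start next to each other on opposite strands of chromosome 5, and 15.8% of the exon bases of HARS2 are shared with other genes, 11.7% with HARS. The strand setting of the counting was not stated, so reads from that overlap cannot be told apart. The other 10 mitochondrial genes had log2 fold changes from −0.21 to 0.16 and did not pass, though EARS2, the glutamate enzyme, passed as higher at 0.23 without DMSO replicate 1.

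Matching each mitochondrial gene to the cytosolic gene of otherwise the same symbol gave 13 pairs, and the cytosolic gene had the more negative PRMT5i value in 12 of the 13. FARS2, EARS2 and PARS2 were left out, since FARSA, FARSB and EPRS, which serve the same amino acids, differ from them in symbol. Both genes fell for alanine, cysteine, methionine and asparagine. In 5 pairs, for isoleucine, leucine, serine, threonine and tryptophan, the cytosolic gene alone passed as lower, and for valine the mitochondrial gene alone. For methionine the log2 fold changes were −1.46 in MARS and −0.44 in MARS2, and for leucine −0.89 in LARS and −0.00 in LARS2. These differences within pairs were not tested. About 57.0% of the exon bases of SARS2 are shared with other annotated genes, 46.2% with AC011455.2 on the same strand. For WARS the shared part is 10.6%, so counts in the serine and tryptophan pairs carry that limit.

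In the combination, 11 of 20 cytosolic and 4 of 16 mitochondrial synthetases fell relative to DMSO and none rose, where 36.2% of all tested genes were called (18.5% lower and 17.6% higher). The median log2 fold change was −0.63 over the cytosolic and −0.07 over the mitochondrial genes, against 0.00 over all genes. This comparison uses the same DMSO libraries as the PRMT5i comparison. The combination fold changes on the log2 scale were −1.17 for MARS, −1.095 for SARS, −1.04 for WARS, −0.99 for LARS and −0.90 for CARS, with adjusted p from 1.13e-07 for SARS to 3.3e-05 for CARS. For PRMT5i the same genes had −1.46, −1.01, −0.97, −0.89 and −1.002.

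SARS measured 77.9, 77.6, 93.1 and 92.7 CPM in the combination and LARS 305, 319.7, 294 and 320.3 CPM, below all DMSO libraries given above. IARS had 525, 549, 558 and 609 CPM, EPRS 430.4, 477, 484 and 525 CPM, and TARS 255, 272, 304 and 329 CPM in the combination, with log2 fold changes against DMSO of −0.87, −0.68 and −0.85. All 3 were below every DMSO library. The adjusted p was 1.26e-05 for IARS, 4.84e-06 for EPRS and 6.8e-06 for TARS.

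KARS, the lysine enzyme that can also be released from the complex as a signalling factor, passed here with a log2 fold change of −0.24 (adjusted p = 0.0283), at 256 to 283 CPM in the combination and 295 to 374 CPM in DMSO. That call was lost under 6 of 17 alternatives, among them total-count scaling (−0.11, adjusted p = 0.237) and leaving out DMSO replicate 4 (−0.24, adjusted p = 0.0569), combination replicate 1 (−0.22, adjusted p = 0.0819) or combination replicate 3 (−0.24, adjusted p = 0.0585). AARS had 143, 132, 184 and 185 CPM in the combination and its value of −0.58 missed the threshold (adjusted p = 0.0753), and without DMSO replicate 1 it passed at −0.84. FARSB had a log2 fold change of −0.21 (adjusted p = 0.0527) and YARS of −0.41 (adjusted p = 0.157), and YARS passed at −0.67 without DMSO replicate 1. FARSB passed at −0.24 without DMSO replicate 2 and at −0.26 without combination replicate 1, and NARS2 and YARS2 passed at −0.28 and −0.30 without DMSO replicate 2. Of the 6 genes with the element core, 5 fell, AARS being the other one, beside 5 of the 10 without it.

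The 4 mitochondrial genes that fell in the combination charge cysteine, valine, alanine and methionine. CARS2 had 48.1, 48.9, 51.3 and 47.1 CPM (log2 fold change −0.67, adjusted p = 5.78e-06) and VARS2 17.3, 16.6, 19.0 and 17.1 CPM (−0.63, adjusted p = 4.4e-05). AARS2 had 33.9, 34.8, 35.3 and 31.4 CPM (−0.62, adjusted p = 0.000122) and MARS2 27.2, 20.8, 24.4 and 20.5 CPM (−0.56, adjusted p = 0.000267). Each of the 4 lay below its DMSO libraries without overlap, as did 16.4% of all tested genes and 80% of those called lower in the combination. HARS2 had 38.9, 40.5, 37.7 and 38.3 CPM, within the range of its DMSO libraries, with a log2 fold change of 0.14 (adjusted p = 0.213), and it passed at 0.20 without DMSO replicate 1. Where libraries were scaled by total counts alone, which moved the median of all genes to 0.13, HARS2 and IARS2 passed as higher in the combination, at 0.27 and 0.21.

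Set directly against the PRMT5 inhibitor alone, none of the 36 genes passed the threshold in the combination, where 4.16% of all tested genes were called (1.24% lower and 2.91% higher). At an unadjusted p under 0.05, edgeR gave 1 cytosolic gene higher and 1 mitochondrial gene lower, beside 9.39% of all tested genes higher and 6.51% lower at that p, and DESeq2 called none after adjustment. Log2 fold changes ran from −0.20 to 0.45, with medians of 0.02 for cytosolic and −0.02 for mitochondrial genes. The extremes were GARS at 0.45, with 129, 157, 215 and 240.0 CPM in the combination beside 120.1 to 149.8 CPM with PRMT5i (adjusted p = 0.176), and HARS2 at −0.20 (adjusted p = 0.233). HARS2 libraries did not overlap between these groups. Nor did those of NARS2, which were higher in the combination (log2 fold change 0.13, adjusted p = 0.608). The share of all genes without overlap was not computed for this comparison. A missed threshold does not show equal levels, and the 95% interval was −0.27 to 0.09 for SARS, −0.02 to 0.59 for MARS and −0.28 to 0.05 for CARS2.

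The combination libraries were not uniform in these genes. MARS had 98.4, 97.7, 145 and 158 CPM, WARS 149, 149.6, 197 and 208 CPM, and CARS 53.2, 46.2, 69.4 and 70.6 CPM in replicates 1 to 4. In each of them replicates 3 and 4 were the high pair, as they were for GARS, SARS and AARS. Both replicates lay above replicates 1 and 2 in 13 of 20 cytosolic genes, 0 of 16 mitochondrial genes and 21% of all tested genes. Both lay below in 0 cytosolic genes, 2 mitochondrial genes and 22% of all tested genes. Genes of the ATF4 target list without synthetases averaged 4.82, 4.67, 5.47 and 5.53 log2 CPM in the same 4 libraries, beside 4.69 to 4.84 in PRMT5i libraries. The proliferation genes averaged 6.75, 6.72, 6.65 and 6.72 log2 CPM there and did not show that split. What sets these libraries apart is not given by the labels, and its part in the values was not tested. In the PRMT5i group, replicates 3 and 4 lay below replicates 1 and 2 in 10 of 20 cytosolic and 8 of 16 mitochondrial genes. They lay above them in 3 cytosolic and 0 mitochondrial genes. Of all tested genes, 24.5% were split so in each direction.

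**Figure D4:**
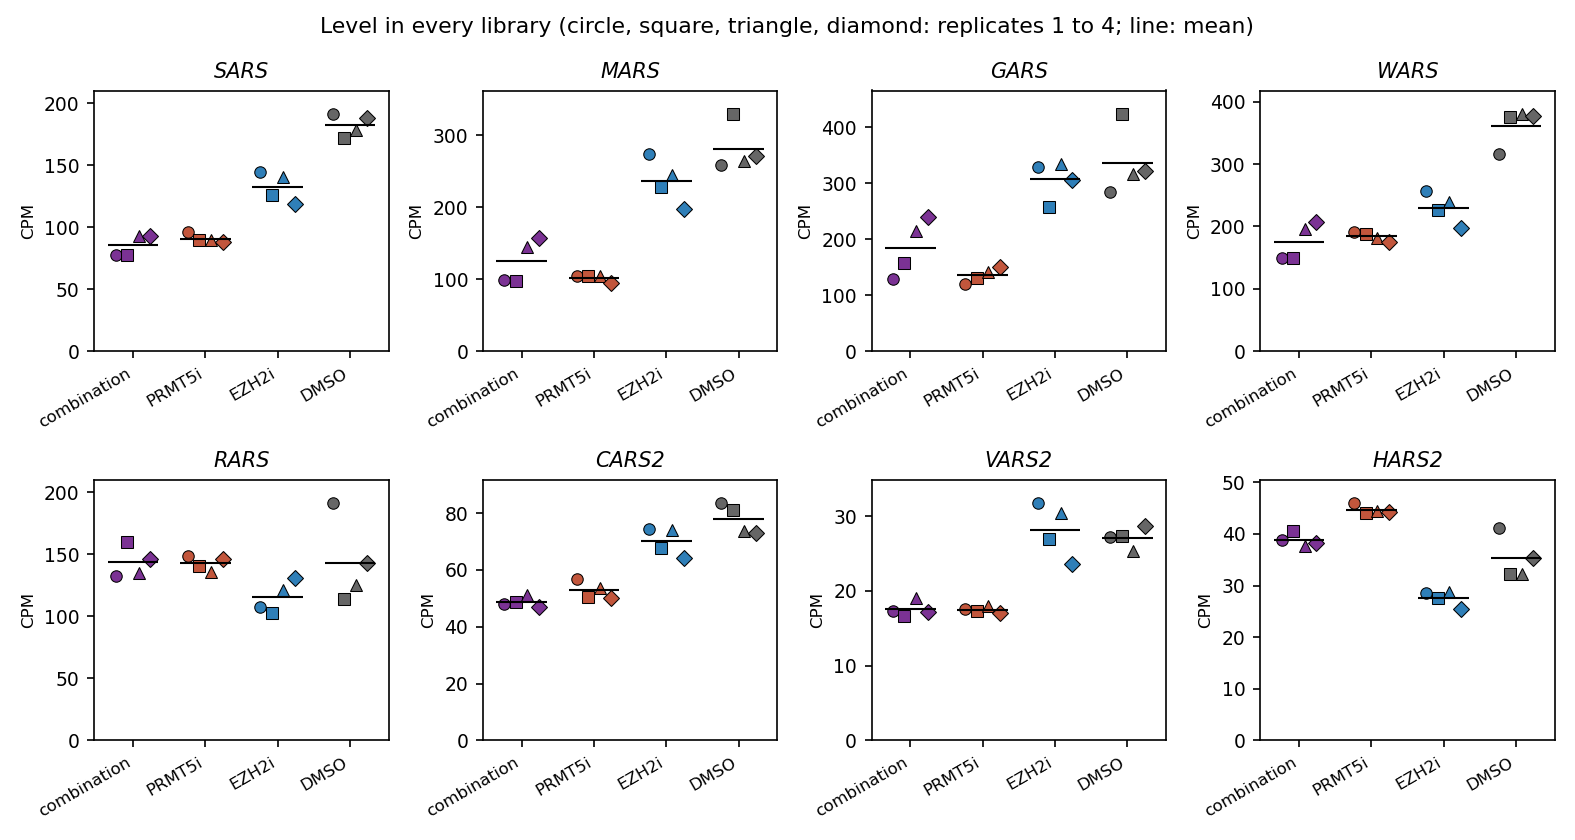
CPM in every library of 5 cytosolic genes (SARS, MARS, GARS, WARS, RARS) and 3 mitochondrial genes (CARS2, VARS2, HARS2), in the combination, PRMT5i, EZH2i and DMSO groups, with the group mean as a line. The combination points of MARS split into 97.7 to 98.4 and 145 to 158 CPM, while RARS overlaps between groups and HARS2 is highest with PRMT5i.

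Against the EZH2 inhibitor alone, the combination was lower in 10 cytosolic and 4 mitochondrial synthetases and higher in 1, HARS2, with 28% of all tested genes called (14.6% lower and 13.4% higher). MARS had 98.4 to 158 CPM in the combination and 197 to 273 CPM with EZH2i, a log2 fold change of −0.92 (adjusted p = 0.000162). VARS2 had 16.6 to 19.0 CPM in the combination and 23.6 to 31.7 CPM with EZH2i, a log2 fold change of −0.68 (adjusted p = 2.58e-05). Neither gene overlapped between the groups, a comparison for which the share of all genes without overlap was not computed. The other 9 cytosolic genes ranged from −0.83 for AARS to −0.39 for WARS, whose libraries overlapped. Both calls were lost without EZH2i replicate 1 (AARS −0.74, WARS −0.34) and without combination replicate 1 or 2 (AARS −0.78 or −0.75, WARS −0.32 each). The median over the 20 cytosolic genes was −0.39, against 0.01 over all genes. HARS2 had 37.7 to 40.5 CPM in the combination and 25.5 to 28.8 CPM with EZH2i, a log2 fold change of 0.49 (adjusted p = 0.000338).

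With the EZH2 inhibitor alone, 6 cytosolic synthetases and 1 mitochondrial synthetase fell relative to DMSO and none rose, where 7.6% of all tested genes were called (3.49% lower and 4.11% higher). WARS had 257, 227, 239 and 198 CPM with EZH2i, against 316, 375, 380.0 and 377 CPM in DMSO, a log2 fold change of −0.65 (SE 0.11, adjusted p = 0.00316). SARS had 145, 126, 141 and 119 CPM with EZH2i, against 191, 172, 178 and 188 CPM in DMSO, a log2 fold change of −0.46 (SE 0.08, adjusted p = 0.00419). In both genes every EZH2i library was below every DMSO library, and every PRMT5i library was below every EZH2i library.

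TARS had 368, 384, 387 and 389.9 CPM with EZH2i, against 625, 448, 493 and 528 CPM in DMSO, with a log2 fold change of −0.45 (SE 0.10, adjusted p = 0.012). LARS had 455, 463, 476 and 497 CPM with EZH2i, against 718, 539, 579.5 and 626 CPM in DMSO, with a log2 fold change of −0.38 (SE 0.08, adjusted p = 0.0122). NARS and IARS completed the cytosolic calls with log2 fold changes of −0.53 and −0.44 (adjusted p of 0.0197 and 0.0203), and the groups of all 4 genes were apart, as were 72.3% of all genes called lower with EZH2i and 5.1% of all tested genes in that direction. MARS and GARS, the genes with the most negative PRMT5i values, did not pass with EZH2i, at −0.25 (adjusted p = 0.273) and −0.13 (adjusted p = 0.638).

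HARS2, which rose with the PRMT5 inhibitor, fell with the EZH2 inhibitor, with 28.6, 27.7, 28.8 and 25.5 CPM against 41.3, 32.2, 32.3 and 35.4 CPM in DMSO (log2 fold change −0.35, SE 0.08, adjusted p = 0.0192). Its groups were apart in both comparisons, and the PRMT5i and EZH2i libraries were not tested against each other. VARS2 and AARS2 had EZH2i values of 0.05 and 0.02, with 95% intervals of −0.13 to 0.24 and −0.18 to 0.23. All EZH2i calls but that of WARS were lost where only the EZH2i and DMSO libraries were fitted, which left 135 genes called in the whole table. In the fit without DMSO replicate 2, 11 cytosolic and 3 mitochondrial genes passed for EZH2i, all lower except FARSA at 0.36. That fit also called many more genes in the whole table than the 1259 called with all libraries. Genes other than the synthetases thus gained calls as well. Whether the synthetases gained more than other genes was not tested. Without DMSO replicate 1, NARS had a log2 fold change of −0.36 (adjusted p = 0.0533) and IARS of −0.29, which still passed. The NARS call was also lost, at −0.52, −0.49 and −0.50, in fits that omitted DMSO replicate 4, EZH2i replicate 1 and EZH2i replicate 3 in turn. IARS missed the threshold in the fit that omitted EZH2i replicate 2 (−0.43), and HARS2 in the one that omitted DMSO replicate 4 (−0.35). Interferon-stimulated genes other than WARS were lower in 7 of 10 with EZH2i and higher in 8 of 10 in the combination, and their part in the WARS values was not tested.

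**Figure D5:**
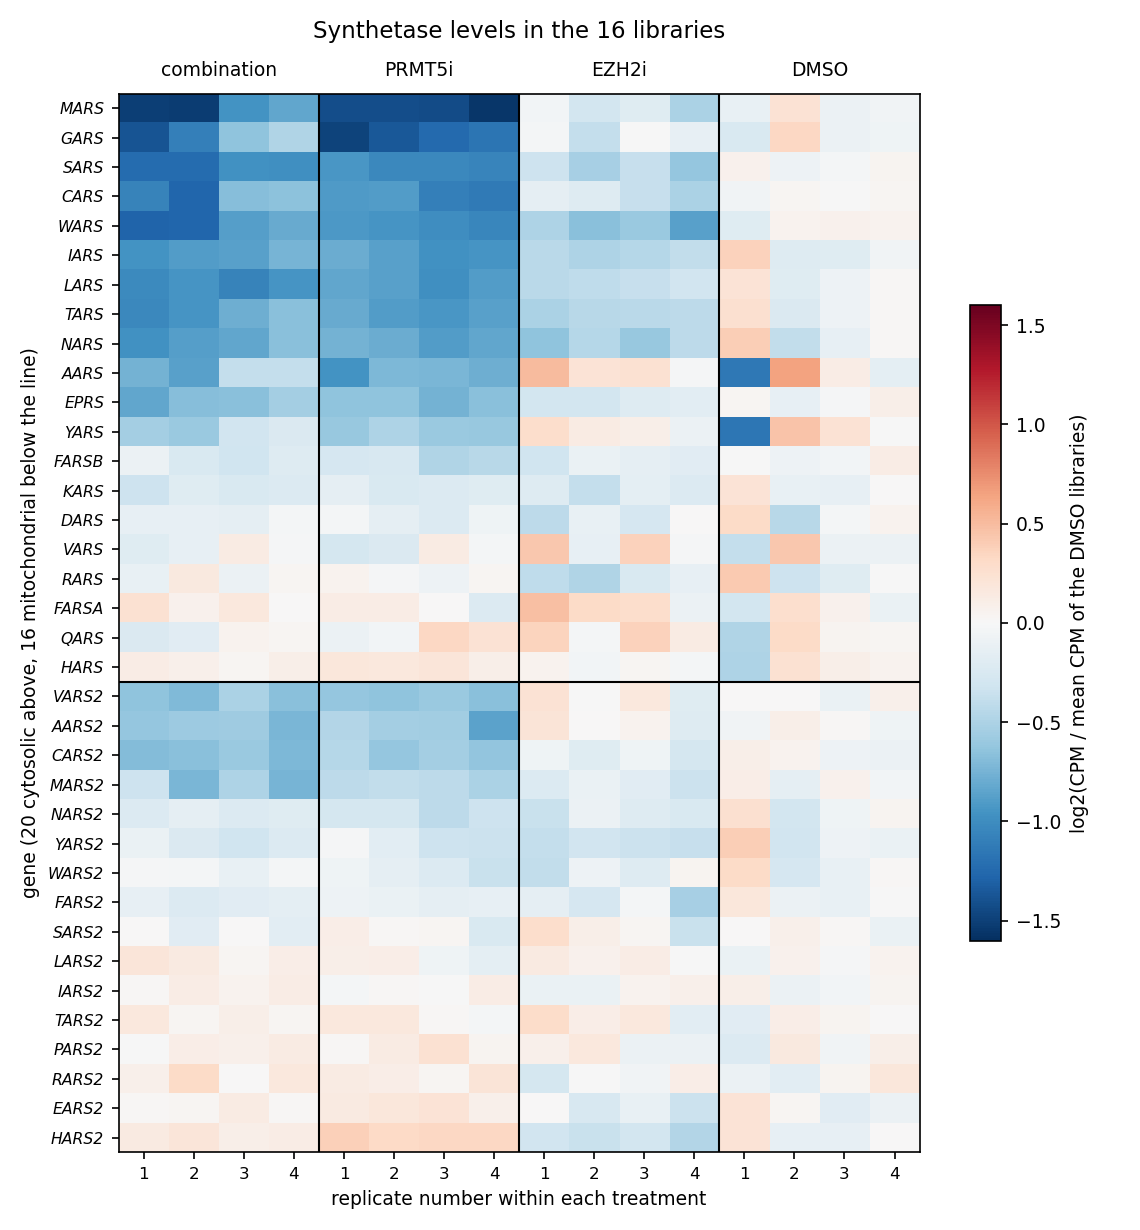
Level of each of the 36 genes (down the page, cytosolic above the line and mitochondrial below) in each of the 16 libraries (combination, PRMT5i, EZH2i and DMSO from left to right), as log2 of CPM over the DMSO mean. The upper block is blue across the combination and PRMT5i libraries for the genes that fell, and DMSO replicate 1 shows AARS (109 CPM) and YARS (103 CPM) below the other DMSO libraries.

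The interaction asks whether the combination departs from the sum of the single-inhibitor changes on the log2 scale, and it was called for none of the 36 genes, with 0.29% of all tested genes called (0.0362% with a negative and 0.254% with a positive term). At an unadjusted p under 0.05, edgeR gave 11 cytosolic genes and 1 mitochondrial gene with a positive term and none with a negative one, beside 5.48% of all tested genes with a positive and 3.51% with a negative term at that p, and DESeq2 called none after adjustment. The median term was 0.30 over cytosolic genes, 0.07 over mitochondrial genes and 0.01 over all genes. WARS had the smallest p, with a term of 0.58 (95% interval 0.25 to 0.92, adjusted p = 0.235): the single inhibitors gave −0.97 and −0.65 and the combination −1.04. TARS had a term of 0.48 with an adjusted p of 0.266. The 4 groups enter every such term, DMSO replicate 1 included. With an offset for gene GC content, an alternative chosen after seeing the data, WARS passed the threshold with a term of 0.64.

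Per kilobase of transcript, IARS and TARS were the most abundant synthetase mRNAs in DMSO cells, at 219 ± 43.7 and 207 ± 29.8 CPM per kilobase (SD, n = 4), and these do not differ beyond their spread. NARS followed at 158 ± 36.8 and EPRS at 153 ± 9.89 CPM per kilobase, which overlap as well. The first 17 places of the order were cytosolic genes. CARS2, at 41.4 CPM per kilobase, was the highest mitochondrial gene and was level with IARS2 at 41.1 and the cytosolic CARS at 40.4. HARS and FARSB, at 21.9 and 21.3 CPM per kilobase, were the lowest cytosolic genes, and PARS2, the proline enzyme of mitochondria, was the lowest member at 3.14.

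The genes around the synthetases moved unevenly under the PRMT5 inhibitor. Of 24 ATF4 target genes other than synthetases, 23 fell and none rose, with a median log2 fold change of −1.50, and the remaining gene, ALDH18A1, had 0.07. CTH, which makes cysteine, averaged 5.57 ± 0.69 CPM with PRMT5i and 25.8 ± 0.91 CPM in DMSO, and fell by 2.21 on the log2 scale (adjusted p = 2.13e-09). TRIB3, a pseudokinase that restrains ATF4 signalling, fell by 2.31 (adjusted p = 1.19e-08), INHBE, which encodes an inhibin beta subunit, fell by 3.73 (adjusted p = 1.21e-08) and CBS fell by 3.10 (adjusted p = 2.67e-08). CBS, the enzyme upstream of CTH, has a near-identical annotated copy, so its count is uncertain. In the combination 23 of 24 fell, with a median of −1.35, and with EZH2i 4 fell.

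Of 12 sensors and factors of the integrated stress response, 7 fell and 2 rose with PRMT5i. ATF4 averaged 287 ± 72.1 CPM in the combination, 214 ± 6.04 CPM with PRMT5i, 587 ± 60.6 CPM with EZH2i and 647 ± 53.7 CPM in DMSO (SD, n = 4 each), and its PRMT5i log2 fold change was −1.6 (SE 0.14, adjusted p = 2.37e-07). DDIT3, ATF3 and CEBPG, transcription factors that act with or after ATF4, fell by 1.53, 1.80 and 0.76 on the log2 scale. EIF2AK4, which encodes the uncharged-tRNA sensor GCN2, was one of the 2 that rose, with a log2 fold change of 0.36 (adjusted p = 0.0207).

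Few other translation genes passed the threshold with PRMT5i. Of 7 cytosolic elongation factor genes only EEF1D passed with PRMT5i, with a log2 fold change of −0.52 (adjusted p = 0.000551), and of 13 further mitochondrial translation genes GATC and TSFM passed, each with −0.32 (adjusted p of 0.0126 and 0.0272). Of the 3 scaffold genes of the multisynthetase complex, EEF1E1 fell by 0.66 (adjusted p = 0.015), and AIMP2 had −0.25 (adjusted p = 0.0986). In the combination more passed: 3 of the 7 elongation, 4 of the 13 mitochondrial translation and 2 of the 3 scaffold genes fell. None of them rose, and 18.5% of all tested genes were lower in that comparison. The following values are again for PRMT5i. NOP56, NOP58 and NPM1 were the 3 of 8 MYC and nucleolar genes that fell, by 0.61, 0.54 and 0.44.

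Proliferation and interferon genes moved beside the synthetases. All 8 proliferation genes fell with PRMT5i, with log2 fold changes of −1.54 for TOP2A, which untangles DNA, −1.96 for the mitotic kinase AURKB, and −1.14 and −1.01 for the replication helicase subunits MCM2 and MCM3. In this list 7 of 8 fell in the combination, whereas 2 rose and none fell with EZH2i. In the combination against PRMT5i, 7 of the 8 were higher while none of the 36 synthetases passed. Of 10 interferon-stimulated genes, 4 rose and 2 fell with PRMT5i, where MX1 rose by 0.77, GBP2 by 0.68 and IFI6 by 0.39, and CXCL10 fell by 0.84. The part of proliferation in the synthetase values was not tested.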

How the data were processed

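Per the labels and the submitters' processing notes, total RNA of MOLM-13 cells was sequenced as paired ends and processed with STAR 2.5.3 and RSEM on GRCh38.p7. The RSEM version, annotation, strand setting and origin of the replicates are not given in the sources used here. The deposited values are the authors' expected counts per gene in 16 libraries, and 12% of them were not whole. They were rounded, filtered with filterByExpr, scaled by TMM and fitted in edgeR 4.0.16 (R 4.3.3) with 1 mean per treatment, which left 12 residual degrees of freedom per gene. Quasi-likelihood p-values were adjusted by Benjamini-Hochberg over the 16555 genes that passed the filter and called under 0.05, and the procedure was tested on simulated data. Log2 CPM values used a prior count of 2. Intervals are 95% intervals of the fitted fold change. Lengths and overlaps came from GENCODE release 29 on GRCh38. The members and gene lists were chosen with earlier results of these data known. Values in every library were given for up to 8 cytosolic and 4 mitochondrial members with the smallest p in PRMT5i against DMSO and for up to 4 called in other comparisons. Up to 4 genes of each list were named by the same p, and other genes were named after their values were seen. DESeq2 1.42.0, 2-group fits, other scalings, no filter, a GC offset, a replicate block, a term for replicates 1 and 2 against 3 and 4, and left-out libraries were the alternatives. Counting error at this depth is small beside the spread between libraries.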

Additional observations from a re-analysis of the deposited data

Results flagged for a closer look

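In 8 of 144 groups of 4 libraries (36 genes in 4 treatments), 1 library stood far from the other 3, with a gap to its nearest neighbour above the 95% critical value of Dixon's test. Chance flags about 1 in 20 groups. In DMSO, MARS had 329.115 CPM in replicate 2, above 259 to 271 CPM in the others, and WARS had 315.689 CPM in replicate 1, below 375 to 380.0 CPM. With PRMT5i, MARS had 95.1025 CPM in replicate 4, below 104 to 105 CPM. YARS had 161.835 CPM in PRMT5i replicate 2, above 149.7 to 151 CPM, and HARS2 had 45.9146 CPM in PRMT5i replicate 1, above 44.1 to 44.4 CPM. In the combination, DARS had 234.468 CPM in replicate 4, above 218 to 219 CPM. EARS2 had 61.3915 CPM in combination replicate 3, above 56.6 to 57.4 CPM, and WARS2 had 24.8365 CPM there, below 26.5 to 26.7 CPM.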

How the results depend on the processing

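Of the 55 calls of members over the 6 comparisons, 44 held under all alternatives run, 11 were lost in at least 1 and none changed direction. The EZH2i calls were the least stable. Where only the EZH2i and DMSO libraries were fitted, 1 cytosolic and 0 mitochondrial genes passed in place of 6 and 1. Leaving out 1 library at a time gave 5 to 11 cytosolic and 0 to 3 mitochondrial calls for EZH2i, with 11 and 3 without DMSO replicate 2 and 0 mitochondrial without DMSO replicate 4. Calls over the whole table moved likewise, with many more without DMSO replicate 2 and fewer without DMSO replicate 4 than with all libraries. With a GC offset, which was chosen after seeing the data, 3 mitochondrial genes passed for EZH2i and 1 cytosolic gene, WARS at 0.64, passed for the interaction. In the combination against PRMT5i, HARS2 passed at −0.20 where only those groups were fitted, giving 1 mitochondrial call in place of 0. Scaling by total counts alone moved the median of all genes for the combination against DMSO to 0.13 and that of the cytosolic genes to −0.52, with 10 cytosolic genes lower and 4 mitochondrial genes lower and 2 higher. Without DMSO replicates 1 and 2 together, also chosen after seeing the data, 13 cytosolic and 7 mitochondrial genes passed for PRMT5i and 14 and 4 for the combination. All-gene calls of that fit and of the total-count fit are not given here, so these counts are no result about the members. The cause of these differences was not tested. The labels do not say whether the replicate numbers pair the samples, and the correlations of deviations do not settle it. Of 24 same-number correlations, 9 were over 0.1 (−0.27 to 0.24), and different-number correlations ran from −0.36 to 0.47. With the numbers as a replicate block, member counts were 6 and 1 for EZH2i, 12 and 6 for PRMT5i, and 11 and 4 for the combination, cytosolic and mitochondrial, and all-gene calls were 1430, 5939 and 6130. The unblocked fit gave the same member counts and all-gene calls of 1259, 5847 and 5990.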
